A study of Mus musculus with 8 samples.

Results

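TS/A, a mouse mammary adenocarcinoma line, was compared with 4T1, a mouse mammary carcinoma line known for spreading to distant organs. All 8 of the 8 bulk RNA sequencing libraries of the study entered the comparison, chosen by the line named in the sample titles: 4 libraries of TS/A and 4 of 4T1. Both lines derive from BALB/c mice, and both were grown in RPMI medium with 10% FCS. Each line had been transduced with a virus vector that was empty (2 libraries) or that expressed Gpr56 (2 libraries), a receptor of the adhesion GPCR family whose gene is listed as Adgrg1. The study's stated interest was Gpr56-expressing cells cultured with type III collagen, with RNA taken after 72 h, and none of the 8 libraries is labelled as untransduced. The titles contrast Control with ColIII, and name the empty vector in all 8 libraries, where the characteristics contrast the empty vector with the Gpr56 vector. The groups below therefore carry the vector label of the characteristics, and the tests between the lines had that label as a covariate. Counts of reads, ratios, overlap between libraries and medians per library were taken without it. Each line is 1 established cell population, so the comparison describes these 2 lines and no wider class of tumours.

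Epithelial cells hold together through adherens junctions built on E-cadherin, tight junctions built on claudins and occludin, and desmosomes anchored to keratin filaments. Carcinoma cells can lose these structures and take up genes of mesenchymal cells, such as N-cadherin and type I collagen, under repressors of the Zeb, Snai and Twist families. These repressors bind E-box sequences in the promoters of epithelial genes. Mouse mammary tumour lines are known to sit at different points between these states, and to differ as well in the loss of cell cycle inhibitors, in stress pathways and in secreted factors.

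Depth ran from 10510569 to 25959142 reads per library. Levels are CPM (a gene's reads scaled to a fixed library total) corrected by TMM, a factor that evens out differences in library composition, and a mean ± SD covers the 4 libraries of a line. No label says that libraries were separate cultures, so every p-value reflects the spread among these libraries alone, possibly technical. The TS/A libraries spread more than those of 4T1: the biological coefficient of variation was 19.6% in TS/A fitted alone and 5.48% in 4T1 fitted alone, and TS/A empty libraries 1 and 2 stood furthest from each other. Adgrg1, the transduced gene, had 2.53, 2.77, 90.5 and 100.1 CPM in 4T1 empty 1, empty 2, Gpr56 1 and Gpr56 2. In TS/A the same order gave 34.8, 16.3, 22.6 and 13.3 CPM, so the TS/A libraries labelled Gpr56 held no more Adgrg1 than those labelled empty, and whether they carried the vector cannot be read from this gene. Some markers of other cell types were at or near 0 in both lines, and others were not. Ptprc of leukocytes had 4 reads in all 4T1 libraries and 0 in TS/A. Thy1, Lum and Fap of fibroblasts and Emcn and Erg of endothelium had 0 reads in both. Tested members numbered 3 of 22 immune (1 higher and 1 lower in TS/A) and 5 of 13 fibroblast markers (2 and 2). They numbered 6 of 13 endothelial (0 and 3) and 2 of 17 adipocyte, neural and erythroid markers (1 and 1). Of 10 sex chromosome genes looked for, only 6 were among the counted genes, and 0 of these passed the filter on low counts. Summed levels ran from 13.9 to 28.7 CPM in 4T1 and 9.21 to 13.6 CPM in TS/A for immune markers, and from 105 to 131 CPM and 25.9 to 34.6 CPM for endothelial markers. Fibroblast markers summed higher in TS/A, at 141 to 354 CPM against 10.1 to 17.5 CPM in 4T1, mostly Col1a1, and their part in the results on mesenchymal and matrix genes was not tested.

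The lines differed in most of the genes measured. Of 11970 genes tested, 7827 (65.4%) were called between TS/A and 4T1 by edgeR's quasi-likelihood test at an adjusted p under 0.05, 3946 (33.0%) higher in TS/A and 3881 (32.4%) lower. The median log2 difference (TS/A over 4T1) over all tested genes was 0.01, and the median absolute difference was 0.54. At least 4-fold differences were called in 1450 genes (12.1%) and at least 16-fold differences in 755 (6.31%). A line difference counts below as held when it was called with the empty vector, with the Gpr56 vector and in the joint fit, with 1 sign throughout. With the empty vector 5674 genes (47.4%) were called and with the Gpr56 vector 6462 (54.0%). Held genes numbered 4913 (41.0%), of which 2435 (20.3%) were higher in TS/A and 2478 (20.7%) lower. Leaving out 4T1 empty 1 or 4T1 empty 2 lowered the count of held genes to 3123 or 3134, fits in which that arm kept 1 library. The 4 libraries of one line lay entirely above or below the 4 of the other in 7052 genes (58.9%), with TS/A above in 28.9% and below in 30.0%. These shares and this median are the background for each gene list below. The first principal component carried 88.5% of the variance and separated the lines.

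**Figure D1:**
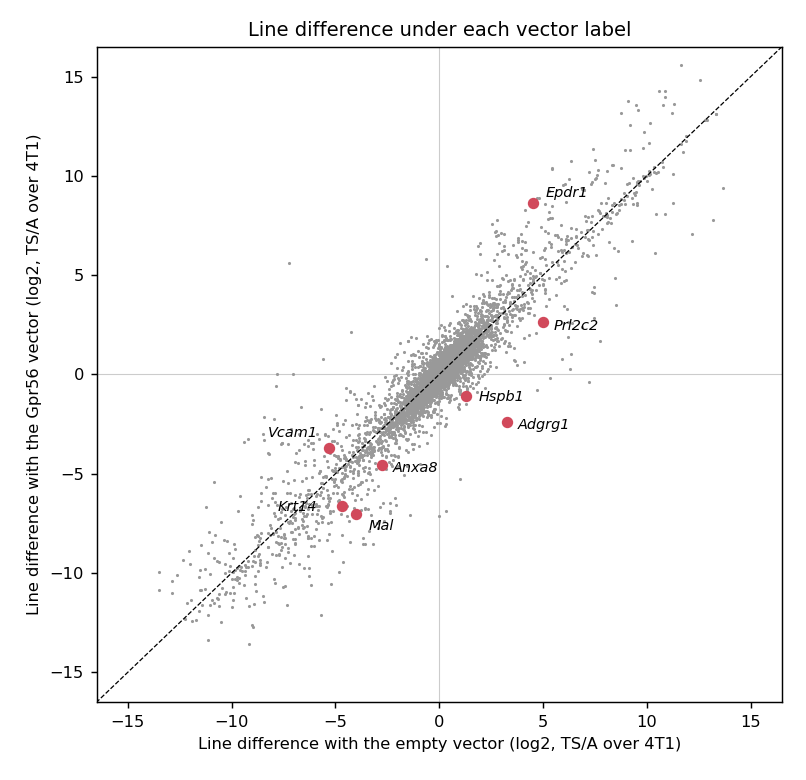
Log2 difference between TS/A and 4T1 with the empty vector (horizontal axis) and with the Gpr56 vector (vertical axis), 1 grey point per tested gene (11970 genes), with the diagonal dashed. Red points are the 8 genes whose line difference depended on the vector label, from Adgrg1 (3.27 and -2.40) to Epdr1 (4.54 and 8.64).

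The line difference depended on the vector label in 8 genes (0.0668% of those tested, edgeR interaction test, with 766 at an unadjusted p under 0.05). Adgrg1 was higher in TS/A with the empty vector (3.27) and lower in TS/A with the Gpr56 vector (-2.40), and Hspb1, a small heat shock protein, changed sign in the same way (1.30 and -1.07). The other 6 kept 1 sign under both labels. Mal, a membrane raft protein, had 47.5, 52.2, 140.3 and 155 CPM in 4T1 and 3.16, 3.02, 0.99 and 1.29 CPM in TS/A, in the order empty 1, empty 2, Gpr56 1 and Gpr56 2, which is the order of all such series below. It was lower in TS/A without overlap (log2 difference -4.01 with the empty and -7.02 with the Gpr56 label; interaction -3.01 ± 0.23, SE; edgeR adjusted p = 0.00774). Epdr1, an ependymin-related secreted protein, had 3.71, 3.48, 0.328 and 0 CPM in 4T1 and 83, 83.9, 86.8 and 90.3 CPM in TS/A and was higher in TS/A throughout. Prl2c2, a placental prolactin-family hormone with near-identical copies whose reads may be shared, had 5.23, 5.03, 9.5 and 10.9 CPM in 4T1 and 158, 171, 66 and 58.6 CPM in TS/A and was higher too. Krt14, Anxa8 and Vcam1 were lower in TS/A under both labels. The number of such genes rested on single libraries: leaving out TS/A empty 1 gave 311, leaving out TS/A empty 2 gave 2391, and leaving out any one of the other 6 libraries gave 0 or 1.

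Genes of epithelial cell junctions, listed together with proteases, inhibitors and regulators of epithelial cells, were lower in TS/A with 1 exception among those tested. Of 33 tested members of a list of 34, 32 were lower in TS/A and 32 of those were held, beside 32.4% and 20.7% of all tested genes. The list's median log2 difference was -6.17, beside 0.01 over all genes, and F11r, a tight junction adhesion molecule at 88.1 ± 15 CPM in 4T1 and 104 ± 18.5 CPM in TS/A, was the member not called. Cdh1 (E-cadherin, ENSMUSG00000000303, GRCm38 chromosome 8, 106603351 to 106670246) had 283, 267, 405 and 428 CPM in 4T1 and 0.164, 0, 0.19 and 0.0461 CPM in TS/A. All 4 TS/A libraries were below 1 CPM and all 4T1 libraries above 250 CPM, a log2 difference of -11.56 ± 0.24 (SE; edgeR adjusted p = 5.52e-10). Cldn4, a claudin of tight junctions, had 107, 111, 265 and 284 CPM in 4T1 and 0.041, 0.162, 0.0762 and 0.185 CPM in TS/A, and the groups did not overlap (-10.70 ± 0.21, SE; edgeR adjusted p = 5.50e-10). St14, the membrane protease matriptase, had 159.7, 166, 266 and 268 CPM in 4T1 and 0.164, 0.323, 0.267 and 0.0461 CPM in TS/A (-10.04 ± 0.24, SE; edgeR adjusted p = 7.50e-10).

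Desmosomal genes split into absent and reduced members. Dsc2, a desmosomal cadherin, had 10.2, 8.88, 13 and 13.4 CPM in 4T1 and 0 reads in TS/A, at least 337-fold lower against a limit of 3 reads over the 4 TS/A libraries. Its partner Dsg2 was at 45.7 ± 10.9 CPM in 4T1 with 2 reads in all TS/A libraries, a ratio of 2065 (95% counting interval 571 to 17061). Jup (plakoglobin) was lower at 73.4 against 0.439 CPM (-7.28 on the log2 scale), whereas Dsp (desmoplakin, 119 against 42.8 CPM, -1.46), Pkp1 (12.6 against 6.59 CPM, -0.92) and Pkp2 (53 against 35 CPM, -0.60) were lower in TS/A but still measured there. The tight junction scaffold Tjp1 was likewise lower but measured, at 205 ± 18.5 CPM in 4T1 and 84.1 ± 13.4 CPM in TS/A. The cadherins Cdh1, Dsc2 and Dsg2 and the plaque gene Jup were thus below 1 CPM in every TS/A library, while Dsp, Pkp1, Pkp2 and Tjp1 were above that level on average.

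The same list holds regulators of epithelial cells. Grhl2, a transcription factor of junction genes, had 46.9, 42.9, 61.9 and 57.9 CPM in 4T1 and 0.328, 0, 0.19 and 0.138 CPM in TS/A (-8.18 ± 0.29, SE; edgeR adjusted p = 1.15e-08). Esrp1, a splicing factor of epithelial cells, was at 56.7 ± 20.7 CPM in 4T1 and had 3 reads in all TS/A libraries, a ratio of 1664 (95% counting interval 569 to 8073). Its relative Esrp2 was lower but present, at 38.8 ± 4.47 CPM in 4T1 and 6.92 ± 1.12 CPM in TS/A (-2.49). Ovol2, which represses mesenchymal genes, had 0.731, 1.6, 2.62 and 2.53 CPM in 4T1 and 0 reads in TS/A. On the whole list, 7 members (Cldn1, Cldn3, Cldn7, Dsg2, Dsc2, Crb3 and Esrp1) had 3 reads or fewer over the 4 TS/A libraries with at least 1 CPM in every 4T1 library.

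**Figure D2:**
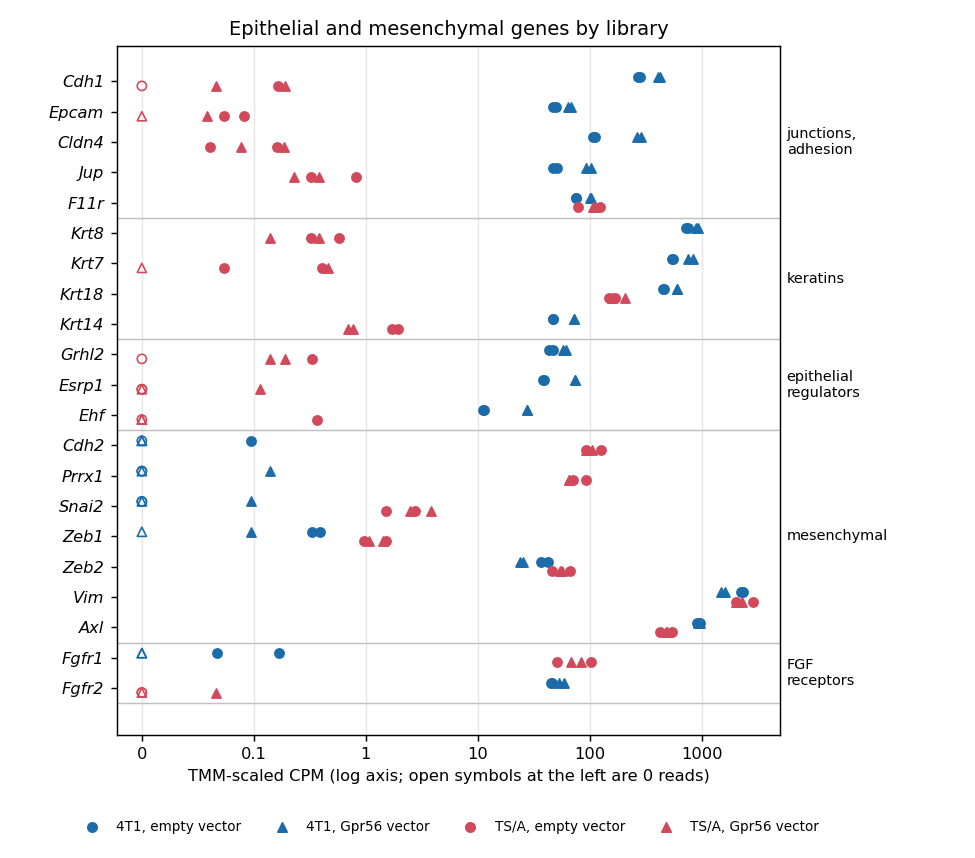
TMM-scaled CPM (log axis, 0 drawn at the left edge as open symbols) of epithelial and mesenchymal genes in the 8 libraries, blue for 4T1, red for TS/A, circles for the empty and triangles for the Gpr56 vector label. Cdh1, Krt8 and Grhl2 sit below 1 CPM in all TS/A libraries, Cdh2, Prrx1 and Fgfr1 below 1 CPM in all 4T1 libraries, and F11r and Vim overlap.

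The promoters of the junction genes were read for the E-box CACCTG on both strands (its reverse complement marks the same site), since the genes moved together. Windows of 250 bases before each RefSeq start site (GRCm38.p6) were found for 20 of the 34 list members, in 26 windows. The motif was present in 12 of these 26 windows (46.2%), against 17.2% of all 32851 windows and 15.5% of the windows of tested genes. Windows of the same gene can overlap and share matches, as those of Crb3 did. Counted by gene, 10 of the 20 held it, against 1699 of 9362 tested genes with a window. Among the mesenchymal list it was present in 1 of 21 windows (4.76%), among genes with 3 reads or fewer in TS/A in 41 of 135 (30.4%), and among genes with 3 reads or fewer in 4T1 in 16 of 97 windows. Of the 10 junction genes with the motif, 8 were lower in TS/A (F11r was not called and Cldn6 was too low to test), and of the 10 without it, 10 were lower. The median log2 difference was -6.17 with the motif and -3.01 without. The windows below are those of Epcam and Krt8, 2 of the epithelial markers of 4T1 that follow, and of Cldn4 and the 3 list members with 3 or more matches. Every gene shown holds the motif, so the windows do not represent the list. The 10 junction genes without it include Cldn3 (-10.69) and Cldn1 (-9.21), which are not shown. Capitals mark the motif on either strand.
Epcam (chr17:87635729-87635978, plus strand): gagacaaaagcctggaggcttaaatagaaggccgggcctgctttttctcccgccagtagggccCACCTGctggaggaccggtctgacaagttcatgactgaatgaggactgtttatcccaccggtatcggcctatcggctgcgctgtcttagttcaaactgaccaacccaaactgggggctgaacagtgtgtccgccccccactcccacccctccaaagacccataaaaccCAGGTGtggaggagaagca
Krt8 (chr15:102004343-102004592, minus strand): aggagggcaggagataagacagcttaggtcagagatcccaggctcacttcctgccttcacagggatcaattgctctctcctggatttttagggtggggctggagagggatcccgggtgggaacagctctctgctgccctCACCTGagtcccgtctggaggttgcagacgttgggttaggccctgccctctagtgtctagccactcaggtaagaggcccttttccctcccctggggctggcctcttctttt
Cldn4 (chr5:134946935-134947184, minus strand): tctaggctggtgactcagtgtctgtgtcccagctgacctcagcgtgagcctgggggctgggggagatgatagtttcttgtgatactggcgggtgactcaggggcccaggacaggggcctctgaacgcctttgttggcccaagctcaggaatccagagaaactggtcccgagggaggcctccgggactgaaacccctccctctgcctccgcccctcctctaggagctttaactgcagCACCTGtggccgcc
Crb3 (chr17:57061951-57062200, plus strand): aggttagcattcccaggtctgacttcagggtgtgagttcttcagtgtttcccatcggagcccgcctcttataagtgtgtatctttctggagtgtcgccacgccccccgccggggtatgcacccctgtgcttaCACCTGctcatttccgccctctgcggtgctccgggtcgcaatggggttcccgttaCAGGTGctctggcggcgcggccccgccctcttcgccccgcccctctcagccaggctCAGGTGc
Ap1m2 (chr9:21312334-21312583, minus strand): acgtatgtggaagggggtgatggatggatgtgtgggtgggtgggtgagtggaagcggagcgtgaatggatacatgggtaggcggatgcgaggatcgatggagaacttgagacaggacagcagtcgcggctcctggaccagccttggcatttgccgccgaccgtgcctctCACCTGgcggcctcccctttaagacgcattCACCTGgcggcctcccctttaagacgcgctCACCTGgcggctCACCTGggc
Spint2 (chr7:29281978-29282227, minus strand): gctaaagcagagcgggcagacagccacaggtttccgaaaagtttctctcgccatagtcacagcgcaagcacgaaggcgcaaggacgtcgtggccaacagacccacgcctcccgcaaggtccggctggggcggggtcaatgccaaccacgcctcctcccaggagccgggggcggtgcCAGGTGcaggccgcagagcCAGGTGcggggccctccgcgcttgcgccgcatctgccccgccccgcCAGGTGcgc
Ap1m2, a sorting adaptor of polarised epithelium, held 4 matches, and Crb3, a polarity protein, and Spint2, a protease inhibitor, held 3 each. A match is a description of letters and says nothing of binding in these cells.

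Keratins and luminal markers separated the lines, with an exception for the partner of Krt8. Krt8 had 726, 749.9, 919 and 886 CPM in 4T1 and 0.574, 0.323, 0.381 and 0.138 CPM in TS/A, with no overlap (-11.12 ± 0.23, SE; edgeR adjusted p = 5.52e-10). Krt7 stood at 668 ± 143 CPM in 4T1 and 0.23 ± 0.237 CPM in TS/A (-11.35), and Epcam, an adhesion molecule used as an epithelial marker, at 57 ± 10.3 CPM in 4T1 and 0.0435 ± 0.0342 CPM in TS/A (-10.15). Krt18, which pairs with Krt8 in simple epithelia, was lower by a smaller margin (log2 difference -1.63) and was at 169.7 ± 24.4 CPM in TS/A, beside 528 ± 87.6 CPM in 4T1. All 4 TS/A libraries therefore held more than 100 CPM of Krt18 next to fewer than 1 CPM of Krt8. Of 20 tested luminal and milk genes, 12 were lower and 4 higher in TS/A (median log2 difference -1.50), beside 32.4% and 33.0% of all tested genes. Gata3, a luminal transcription factor, was lower at 42.2 against 4.46 CPM, and Cd24a, a surface glycoprotein, at 285 against 2.97 CPM. Areg, an EGF receptor ligand of the mammary epithelium, was higher at 66.2 against 146 CPM (1.15), as was the casein gene Csn3 at 0.0726 against 3.36 CPM. The milk genes Csn2, Csn1s1, Wap and Lalba had 0 reads in all 8 libraries. Foxa1 (1.68 against 1.81 CPM) was not called.

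Of 10 tested basal and squamous genes, 7 were lower in TS/A and 1 higher (median -2.67), beside 32.4% and 33.0% of all tested genes. The 1 higher was Acta2, smooth muscle actin, at 0.209 against 0.934 CPM, not held. Krt14 had 46.7, 46.8, 71.7 and 72.5 CPM in 4T1 and 1.93, 1.72, 0.762 and 0.692 CPM in TS/A, and Sfn (14-3-3 sigma) 103, 108, 179 and 178 CPM in 4T1 and 1.11, 0.108, 0.533 and 0.277 CPM in TS/A; neither overlapped. Lama3 and Lamb3, laminin chains that anchor basal epithelium to its membrane, were lower at 37.5 against 0.581 CPM and 141 against 13.2 CPM. Trp63, the defining transcription factor of basal cells, had 6 reads in 4T1 and 14 in TS/A, and Krt5 had 0 and 2, so neither line carried that marker pair. In bulk RNA, fewer cells of a type and less RNA of that type per cell cannot be told apart, and this holds for every list here.

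Mesenchymal genes were higher in TS/A for a particular set and lower for another. Of 25 tested, 13 were higher and 6 lower in TS/A, beside 33.0% and 32.4% of all tested genes, with a median log2 difference of 0.85. Cdh2 (N-cadherin) had 0, 0.094, 0 and 0 CPM in 4T1 and 125, 92.8, 104 and 92.9 CPM in TS/A, a ratio of 3728 (95% counting interval 1032 to 30786) against 2 reads in 4T1. Prrx1, a mesenchymal homeobox factor, had 3 reads over the 4T1 libraries and 92.8, 70.2, 65.5 and 65.2 CPM in TS/A. Pdgfrb, a receptor of mesenchymal cells, had 3 reads in 4T1 and 8.94, 1.94, 5.29 and 4.25 CPM in TS/A. Among repressors of epithelial genes, Snai2 stood at 0.0234 ± 0.0469 and 2.63 ± 0.932 CPM in 4T1 and TS/A, Zeb1 at 0.204 ± 0.187 and 1.25 ± 0.269, Zeb2 at 31.9 ± 8.79 and 56.2 ± 8.47, and Twist1 at 9.39 ± 3.51 and 23 ± 3.67, all higher in TS/A and held. Snai1 (14.3 against 14.8 CPM) was not called. Zeb1 and Snai2 remained below 5 CPM in every library, whereas Zeb2 was above 20 CPM in all 8.

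Several genes often listed with the mesenchymal state went the other way. Axl, a receptor kinase, had 973, 908, 929 and 971 CPM in 4T1 and 545, 425, 493 and 484 CPM in TS/A, lower in TS/A without overlap (-0.96 ± 0.10, SE; edgeR adjusted p = 1.81e-05). Tnc (tenascin C) was lower at 23.7 against 1.0 CPM, and Foxc2, a forkhead factor, had 3.83, 3.57, 4.63 and 3.66 CPM in 4T1 and 0 reads in TS/A, at least 120.2-fold lower. Vim (vimentin), an intermediate filament of mesenchymal cells, was abundant in both lines at 1927 ± 447 CPM in 4T1 and 2302 ± 401 CPM in TS/A and was not called (0.28 ± 0.14, SE; edgeR adjusted p = 0.0941). Among 13 fibroblast markers, Dcn, Col3a1, Lum, Thy1 and Fap had 0 to 2 reads in each line. Of the 5 markers that were tested, 2 were higher and 2 lower in TS/A. Summed over all 13, levels were 141 to 354 CPM in TS/A and 10.1 to 17.5 CPM in 4T1.

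FGF receptors changed places. Fgfr1 had 0.169, 0.047, 0 and 0 CPM in 4T1 and 102, 51.2, 83.7 and 68.3 CPM in TS/A (10.26 ± 0.44, SE; edgeR adjusted p = 4.16e-08), and Fgfr2 had 45.5, 46.4, 53 and 59.4 CPM in 4T1 and 0, 0, 0 and 0.0461 CPM in TS/A, with 1 read in TS/A and a ratio of 4552 (95% counting interval 817 to 179859). Each receptor was thus near 0 in the line in which the other was abundant. Of 42 tested receptor tyrosine kinases and growth factors, 14 were higher and 17 lower in TS/A (median -0.32). The shares over all tested genes were 33.0% and 32.4%. Higher in TS/A were Fgf2 (0.38 against 6.57 CPM), Pdgfc (2.99 against 26.6 CPM) and Vegfa, the main angiogenic factor (20.6 against 112 CPM). Lower were the ephrin receptor Ephb2 (24.4 against 0.614 CPM), the neuregulin receptor Erbb3 (12.7 against 1.77 CPM), Fgfbp1, which releases FGFs from matrix (56.6 against 6.59 CPM), and Met (265 against 124 CPM). Ddr2, a receptor for fibrillar collagens including type III, was higher at 108 ± 5.46 CPM in 4T1 and 292 ± 34.3 CPM in TS/A (1.44 ± 0.10, SE; edgeR adjusted p = 1.48e-06), and Ddr1 (37.7 against 31.6 CPM) was not called.

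**Figure D3:**
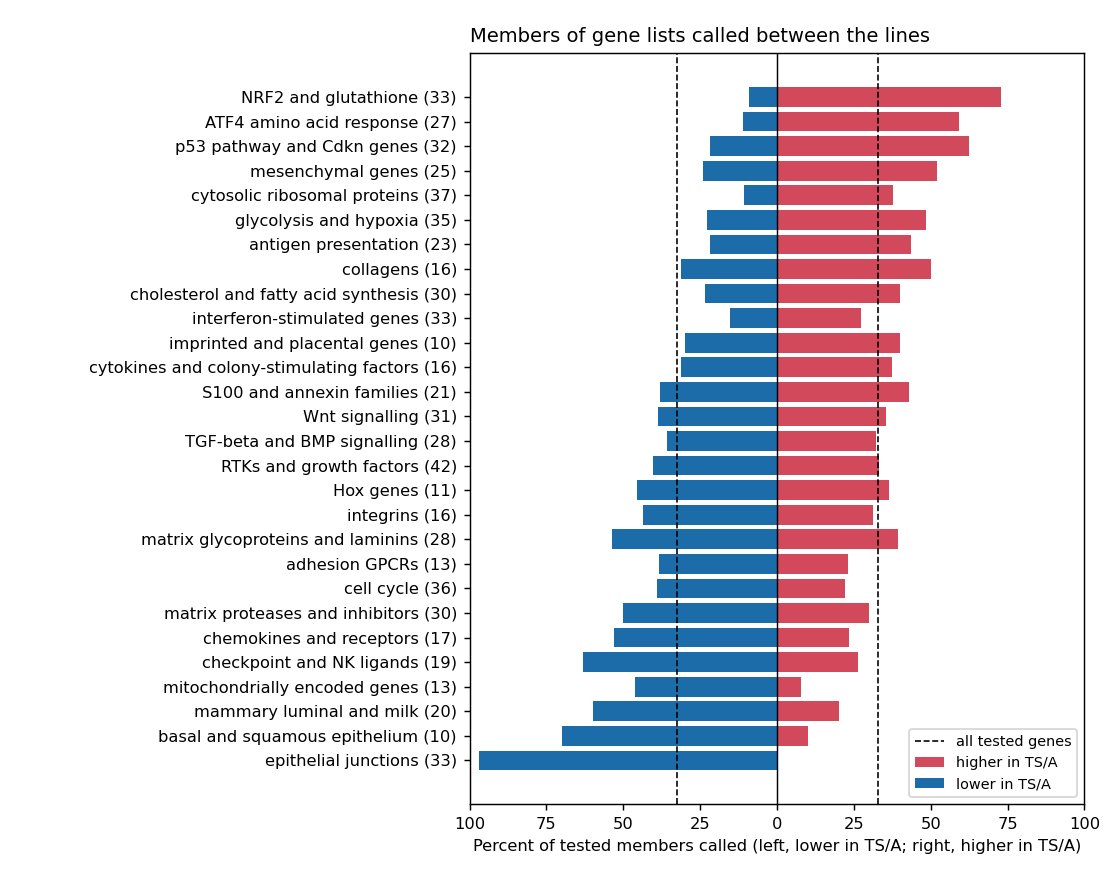
Percent of tested members of each gene list called lower (blue, left) or higher (red, right) in TS/A than in 4T1, with the number tested in brackets and dashed lines at the shares of all tested genes (32.4% lower, 33.0% higher). Epithelial junctions reach 32 of 33 lower, and the NRF2 list 24 of 33 higher.

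Matrix genes differed member by member rather than as a block. Of 16 tested collagens, 8 were higher and 5 lower in TS/A (median 0.31), beside 33.0% and 32.4% of all tested genes. Col1a1 had 1.74, 1.74, 0.468 and 1.03 CPM in 4T1 and 311, 139, 199 and 144 CPM in TS/A (7.36 ± 0.36, SE; edgeR adjusted p = 9.58e-08), while its partner chain Col1a2 stayed at 0.204 against 0.144 CPM and was too low to test. The basement membrane pair Col4a1 and Col4a2 was lower at 573 against 147 CPM and 397 against 73.6 CPM, and Col4a5 (8.42 against 68.9 CPM), Col6a1 (8.3 against 42.2 CPM) and Col18a1 (122 against 311 CPM) were higher. Col3a1, the gene of the collagen added in the study, had 0 reads in 4T1 and 1 in TS/A. Among 28 glycoproteins and laminins, 11 were higher and 15 lower (median -0.54). Nid1 (nidogen) had 0.563, 0.611, 0.983 and 0.469 CPM in 4T1 and 233, 135, 161 and 152 CPM in TS/A, and Efemp1 (fibulin 3) 0, 0.282, 0 and 0.0938 CPM in 4T1 and 172, 110.1, 122 and 83.7 CPM in TS/A, both higher in TS/A without overlap. Thbs1 (thrombospondin) was lower at 412 ± 77.2 CPM in 4T1 and 76.1 ± 35.4 CPM in TS/A (-2.43).

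Of 16 tested integrins, the receptors of matrix proteins, 5 were higher and 7 lower (median -0.08), near the 33.0% and 32.4% of all tested genes. Itgb7, a partner of alpha 4 and alpha E chains, had 3.49, 3.76, 4.17 and 6.0 CPM in 4T1 and 153, 130.4, 142 and 142 CPM in TS/A (5.07 ± 0.15, SE; edgeR adjusted p = 3.07e-09). Itga2, a collagen-binding chain, had 103, 101, 134 and 129.8 CPM in 4T1 and 8.94, 8.29, 9.41 and 16.8 CPM in TS/A, lower in TS/A without overlap (-3.45 ± 0.17, SE; edgeR adjusted p = 9.01e-08), and Itgb6, an activator of latent TGF-beta, was lower at 6.98 against 0.397 CPM. The common partner Itgb1 stood at 1226 ± 42 CPM in 4T1 and 1223 ± 12.9 CPM in TS/A and was not called (-0.00 ± 0.08, SE; edgeR adjusted p = 0.973). Of 30 proteases and inhibitors, 9 were higher and 15 lower (median -0.34). Mmp2, a gelatinase, was higher at 0.192 against 16.1 CPM, Loxl2, a collagen cross-linker, at 1.55 against 35.8 CPM, and Timp3, a metalloprotease inhibitor, at 0.0726 against 11 CPM. The stromelysins Mmp3 (50.3 against 0.692 CPM) and Mmp10 (14.4 against 0.822 CPM), the gelatinase Mmp9 (76.9 against 14.9 CPM) and Adamts1 (126 against 0.38 CPM) were lower. Adamts5 and Serpine2, a protease inhibitor, had 0 reads in TS/A and 3.6 ± 0.905 and 8.62 ± 6.25 CPM in 4T1. Pcolce, an enhancer of procollagen processing, was among the most abundant genes with an at least 4-fold excess in TS/A, at 18.2 ± 7.22 CPM in 4T1 and 264 ± 64.6 CPM in TS/A, and Ctgf, a YAP target and matricellular protein, among those with a deficit, at 438 ± 8.45 CPM in 4T1 and 21.5 ± 1.54 CPM in TS/A.

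The cell cycle inhibitors of the Cdkn2 locus were abundant in TS/A and had 1 or 2 reads in 4T1. Cdkn2a, which encodes p16Ink4a and p19Arf, had 0, 0.047, 0 and 0 CPM in 4T1 and 182, 206, 195 and 159.9 CPM in TS/A, that is 1 read against 16857, a ratio of 13186 (95% counting interval 2366 to 520852). Cdkn2b, its neighbour encoding p15Ink4b, had 0, 0.094, 0 and 0 CPM in 4T1 and 30.9, 36.5, 32.9 and 41 CPM in TS/A, a ratio of 1245 (95% counting interval 344 to 10284). Both lie at GRCm38 chromosome 4, 89274471 to 89311039. Mtap, the adjacent metabolic gene, was abundant in both lines at 510.01 ± 82.7 CPM in 4T1 and 469.7 ± 26.4 CPM in TS/A and was not called (-0.11 ± 0.09, SE; edgeR adjusted p = 0.346). The genes read in opposite states thus sit beside a gene read at similar levels.

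A list that joins p53 pathway genes with Cdkn genes was mostly higher in TS/A (median 0.56). Of its 32 tested members, 20 were higher and 7 lower, beside 33.0% and 32.4% of all tested genes. Trp53 itself had 40.8, 44.8, 42.7 and 45.9 CPM in 4T1 and 244, 193, 226 and 181 CPM in TS/A, without overlap (2.28 ± 0.11, SE; edgeR adjusted p = 1.19e-07). Its target Cdkn1a (p21) had 24.8, 21, 37.9 and 35.1 CPM in 4T1 and 176, 151, 189 and 154 CPM in TS/A (2.53 ± 0.15, SE; edgeR adjusted p = 3.62e-07), and Phlda3 stood at 9.87 against 30.7 CPM. Pmaip1 (Noxa), a proapoptotic target, had 0 reads in 4T1 and 3.16, 2.91, 1.79 and 3.0 CPM in TS/A, at least 63.4-fold higher. Other targets differed less or in the other direction: Mdm2 was higher by 0.42 (67 against 89.5 CPM), Bax (95.4 against 86.8 CPM) was not called, and Aen (122 against 50.6 CPM), Plk2 (305 against 65.8 CPM) and Perp (126 against 0.864 CPM) were lower in TS/A. Perp is also a desmosomal protein. Of 36 cell cycle genes, 8 were higher and 14 lower (median -0.15). The median ran from -0.24 without TS/A empty 1 to -0.12 without TS/A empty 2, and both counts also moved when single libraries were left out. Mki67 was lower at 530.3 ± 25.5 CPM in 4T1 and 174 ± 67.7 CPM in TS/A. Ccnd1 (cyclin D1) was lower at 1173 ± 126 CPM in 4T1 and 594 ± 55.8 CPM in TS/A, and Ccnb1 was higher at 259 against 427 CPM. Mcm2 (259 against 246 CPM), Pcna (466 against 463 CPM) and Top2a (859 against 902 CPM), which mark replicating cells, were not called, and Mycl had 0 reads in TS/A and 4.39 ± 0.99 CPM in 4T1.

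**Figure D4:**
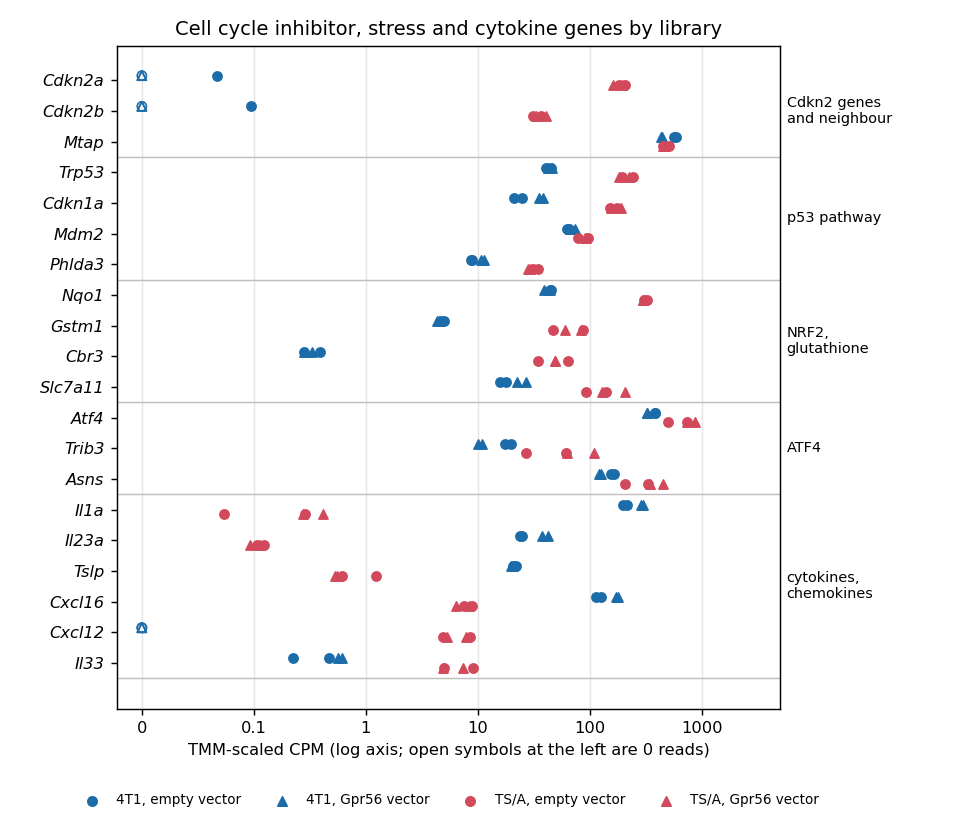
TMM-scaled CPM (log axis, 0 drawn at the left edge as open symbols) of Cdkn2, p53, NRF2, ATF4 and cytokine genes in the 8 libraries, blue for 4T1, red for TS/A, circles for the empty and triangles for the Gpr56 vector label. Cdkn2a and Cdkn2b are at or near 0 in 4T1 while the lines overlap for Mtap, and Il1a lies below 1 CPM in all TS/A libraries.

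Antioxidant and glutathione genes were higher in TS/A, with 24 higher and 3 lower of 33 tested, beside 33.0% and 32.4% of all tested genes, and a median of 0.72. They are targets of the transcription factor NRF2 or enzymes of glutathione use. Nqo1, a quinone reductase, had 44.4, 45.1, 38.9 and 43.9 CPM in 4T1 and 304, 327, 299.8 and 297 CPM in TS/A (2.83 ± 0.08, SE; edgeR adjusted p = 2.68e-09), and Cbr3, a carbonyl reductase, had 0.394, 0.282, 0.328 and 0.281 CPM in 4T1 and 34.2, 63.4, 48.8 and 48.7 CPM in TS/A (7.21 ± 0.27, SE; edgeR adjusted p = 1.65e-08). Gstm1 stood at 4.64 against 69.4 CPM, Mgst2 at 1.18 against 15.9 CPM, Gsta4 at 33.1 against 120.1 CPM and Srxn1 (sulfiredoxin) at 69.5 against 212 CPM. Pir (pirin), also known as an NRF2 target and no member of that list, had 2 reads in 4T1 and 106, 108, 117 and 124 CPM in TS/A. Nfe2l2, the gene of NRF2, was higher at 75.8 against 107 CPM (0.50) and Keap1, its inhibitor, lower at 74.1 against 54 CPM (-0.45), both called and neither held. The glutathione transferases are near-identical copies in part, so reads may be shared among them.

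The amino acid response downstream of ATF4 was higher in TS/A in 16 of 27 tested genes and lower in 3, beside 33.0% and 32.4% of all tested genes, with a median of 1.0. Without TS/A Gpr56 2, 5 were lower. Atf4 had 386, 381, 321 and 324 CPM in 4T1 and 495, 733, 734 and 870.4 CPM in TS/A, higher in TS/A without overlap (edgeR adjusted p = 3.93e-04). Trib3, a pseudokinase, had 17.4, 19.9, 9.97 and 11 CPM in 4T1 and 26.7, 61.6, 63.1 and 109 CPM in TS/A, higher without overlap though the TS/A libraries ranged widely. Pycr1, of proline synthesis, stood at 3.67 against 22 CPM, Asns (asparagine synthetase) at 141 against 336 CPM and the cystine transporter Slc7a11 at 20.8 against 142 CPM. Atf3 (34.2 against 16.6 CPM), the glutamine transporter Slc1a5 (189 against 124 CPM) and Vldlr (1.3 against 0.0103 CPM) were lower. Bcat1, a branched-chain aminotransferase, was among the largest differences, with 3 reads in 4T1 and 251, 284, 292 and 316 CPM in TS/A, a ratio of 6752 (95% counting interval 2310.1 to 32743). In glycolysis and hypoxia, 17 of 35 were higher and 8 lower (median 0.31): Aldoc (3.91 against 44.2 CPM), Pfkp (68.1 against 243 CPM) and Egln3 (47.5 against 112 CPM) were higher, and Pfkfb3, which makes the activator of phosphofructokinase, was lower at 38.4 ± 4.1 CPM in 4T1 and 2.4 ± 0.381 CPM in TS/A. Cholesterol and fatty acid genes gave 12 higher and 7 lower of 30 (median 0.12).

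Calls among ribosomal protein and mitochondrially encoded genes depended on the libraries used. The shares over all tested genes were 33.0% higher and 32.4% lower. Among 37 cytosolic ribosomal protein genes, 14 were higher and 4 lower, and these became 25 and 5 without TS/A empty 1 and 9 and 3 without 4T1 Gpr56 1. Among 13 mitochondrially encoded genes, 1 was higher and 6 lower, with 10 lower without TS/A empty 1 and 3 lower without 4T1 empty 2 or without 4T1 Gpr56 1. Their share of all reads overlapped between the lines, at 0.568% to 0.965% in 4T1 and 0.517% to 0.859% in TS/A.

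Secreted immune factors were abundant in different members. Il1a, an alarm cytokine of epithelia, had 199, 214, 299 and 286 CPM in 4T1 and 0.287, 0.0539, 0.419 and 0.277 CPM in TS/A (-9.82 ± 0.19, SE; edgeR adjusted p = 5.50e-10). Il23a (32.2 against 0.109 CPM) and Tslp (20.8 ± 1.03 CPM in 4T1 and 0.735 ± 0.337 CPM in TS/A) were lower in TS/A too. Csf3, the granulocyte growth factor, was lower at 133 against 66.5 CPM. Il33 (0.466 against 6.58 CPM) and Il34 (7.37 against 17.4 CPM) were higher, and Csf1 (234 against 280.2 CPM) was not called. Of 16 tested cytokines, 6 were higher and 5 lower (median 0.35), beside 33.0% and 32.4% of all tested genes. Of 17 chemokines and receptors, 4 were higher and 9 lower (median -0.90). Cxcl5, which attracts neutrophils, had 601, 624, 776 and 732 CPM in 4T1 and 189.8, 171, 118 and 103 CPM in TS/A, and Cxcl16 115, 125, 173 and 179.7 CPM in 4T1 and 7.59, 8.89, 6.4 and 8.31 CPM in TS/A, both lower without overlap. Cxcl12, a chemokine of stromal cells, had 0 reads in 4T1 and 8.53, 4.85, 7.92 and 5.26 CPM in TS/A, at least 162-fold higher. Cxcl1, another neutrophil attractant, was not called (368 ± 56.1 CPM in 4T1 and 459 ± 117 CPM in TS/A).

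Antigen presentation genes were higher in 10 and lower in 5 of 23 tested, beside 33.0% and 32.4% of all tested genes (median 0.26). Leaving out single libraries gave 8 to 13 higher, with medians of 0.15 (without TS/A Gpr56 1) to 0.41 (without TS/A empty 2). H2-T23 (9.84 against 38.5 CPM), H2-M3 (8.15 against 30.4 CPM) and Tap2, a peptide transporter (9.58 against 33.9 CPM), were higher, and Nlrc5, an activator of class I genes, was lower at 9.42 ± 3.7 CPM in 4T1 and 0.717 ± 0.214 CPM in TS/A. The classical class I gene H2-K1 (84.7 against 93.4 CPM) was not called, and reads of these near-identical genes may be shared. Of 33 interferon-stimulated genes, 9 were higher and 5 lower, beside 33.0% and 32.4% of all tested genes (median 0.12). Without TS/A empty 1, 9 were lower, without TS/A Gpr56 2, 13 were higher, and the medians without single libraries ran from 0.03 (4T1 empty 1) to 0.21 (4T1 Gpr56 1). Of 19 checkpoint and killer cell ligand genes, 12 were lower and 5 higher (median -0.68). Icam1, an adhesion ligand of leukocytes, had 10.3, 11.7, 4.54 and 4.5 CPM in 4T1 and 0.082, 0.0539, 0 and 0.0461 CPM in TS/A, and Vcam1 143, 142, 74.7 and 79 CPM in 4T1 and 3.57, 3.55, 5.52 and 6.18 CPM in TS/A, lower in TS/A under both vector labels. Ptges, which makes prostaglandin E2, had 6.3, 5.92, 5.1 and 4.97 CPM in 4T1 and 182, 174, 183 and 166 CPM in TS/A (4.98 ± 0.10, SE; edgeR adjusted p = 5.52e-10), whereas Ptgs2 (COX-2), the step before it, was lower at 1113 ± 192 CPM in 4T1 and 740.3 ± 139 CPM in TS/A. Cd274 (PD-L1) was at 1.84 against 2.7 CPM and was not called.

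Developmental signalling genes differed by member. Wnt1, a mammary oncogene that no list held, was picked after its values were seen: it had 3 reads in 4T1 and 93.3, 59.8, 83.2 and 65.3 CPM in TS/A. Of 31 tested Wnt genes, 11 were higher and 12 lower (median -0.20), beside 33.0% and 32.4% of all tested genes. Axin2, a feedback target of the canonical pathway, had 1 read in 4T1 and 20.8, 6.57, 12.3 and 4.38 CPM in TS/A, Wnt10b stood at 1.28 against 13.8 CPM and Lgr6 at 2.28 against 21.3 CPM, while Wnt7a, a ligand, had 52.5, 54.1, 83.8 and 83.7 CPM in 4T1 and 0.451, 0.377, 0.19 and 0.277 CPM in TS/A and was lower. Of 28 TGF-beta and BMP genes, 9 were higher and 10 lower (median -0.14, and 0.05 without TS/A empty 2). Bmp4 had 1 read in 4T1 and 12.3, 8.24, 11.7 and 7.01 CPM in TS/A, and Fstl1, a secreted binding protein, stood at 2.13 against 65.5 CPM. The activin subunit Inhba was lower at 57.6 ± 0.878 CPM in 4T1 and 1.82 ± 0.264 CPM in TS/A, and both TGF-beta receptors Tgfbr1 (52.6 against 14.5 CPM) and Tgfbr2 (212 against 86.4 CPM) were lower. Of 11 tested Hox genes, which record position along the body axis, 4 were higher and 5 lower, with Hoxa7 higher at 4.25 against 42 CPM, Hoxc9 at 0 against 3.76 CPM and Hoxa5 lower at 32.8 against 10.0 CPM (median -0.32).

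Adhesion G protein-coupled receptors, the family of Gpr56, gave 3 higher and 5 lower of 13 tested, beside 33.0% and 32.4% of all tested genes (median -0.10). The median was -0.62 without TS/A empty 1 and -0.56 without 4T1 empty 2. Adgrl2 (latrophilin 2) had 85.3, 77.1, 70.8 and 79.8 CPM in 4T1 and 0.205, 0.108, 0.152 and 0.0923 CPM in TS/A (-9.03 ± 0.18, SE; edgeR adjusted p = 5.50e-10), and the planar polarity genes Celsr1 (15.9 against 0.14 CPM) and Celsr2 (6.58 against 0.034 CPM) and Adgrg6 (31.2 against 0.779 CPM) were lower too. Adgrf5 had 9.62, 9.21, 5.01 and 4.69 CPM in 4T1 and 120.2, 73.8, 89 and 77.2 CPM in TS/A (3.70 ± 0.20, SE; edgeR adjusted p = 2.44e-07), and Adgra2 stood at 2.19 against 20.1 CPM. Adgrg1 was not called in the joint fit (0.09 ± 1.13, SE; edgeR adjusted p = 0.946), its differences under the 2 labels having opposite signs. Among S100 and annexin genes, 9 of 21 were higher and 8 lower (median 0.08), with S100a4 higher at 348 ± 144 CPM in 4T1 and 2281 ± 295 CPM in TS/A and Anxa8 lower at 95 against 6.96 CPM. Of 10 tested imprinted and placental genes, 4 were higher and 3 lower (median 0.93), and of 2 tested germline genes none was called.

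Some genes were read in only one line. In TS/A, 140 genes (1.17% of those tested) had 3 reads or fewer over the 4 libraries with at least 1 CPM in every 4T1 library, and 69 of them had 0 reads. In 4T1, 107 genes (0.894%) were in that state, 60 at 0 reads. All 247 are protein coding in the annotation. The share of coding genes over all tested genes was not counted, so this does not set them apart. Abundant examples without reads in 4T1 were Epb41l3, a membrane cytoskeleton linker (81.8, 46, 60.9 and 49.9 CPM in TS/A, at least 1442-fold higher), the receptor phosphatase Ptprg (80.1, 46.2, 58.4 and 51.1, at least 1422-fold) and the actin regulator Evl (53.8, 39, 44.8 and 42.8, at least 1079-fold). Slc35f2 (at least 1031-fold), Layn (at least 577-fold), Abca5 (at least 529-fold) and the phosphatase Ptprm (at least 471-fold) were also at 0 reads in 4T1. Emb (embigin) had 1 read there and 82.2, 78.4, 78.8 and 76.2 CPM in TS/A.

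In the other direction Tssc4 had 28.6, 31.2, 32.3 and 31.6 CPM in 4T1 and 0 reads in TS/A, at least 937-fold lower. Igsf9 (at least 859.9-fold), Nipal2 (at least 789-fold), Scarf2 (at least 643-fold) and Prom2 (at least 615-fold) were likewise at 0 in TS/A. Zfp275, a zinc finger gene on chromosome X, had 1 read in TS/A and 68, 64.9, 65.9 and 64.8 CPM in 4T1. Itpripl2 (3 reads against 138 ± 6.87 CPM), Trim35 (3 reads against 120.4 ± 5.19 CPM) and Fam111a (2 reads against 80.2 ± 12.8 CPM) also had few reads in TS/A. In 4T1, Trim35 had 117, 115, 124 and 125 CPM.

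Residual reads of such genes were counted by a rule chosen after the data were seen. Over 18 genes at 50 CPM or more in every TS/A library and below 1 CPM in every 4T1 library, the 4T1 libraries held 34, 89, 55 and 25 reads, that is 0.0771%, 0.169%, 0.104% and 0.0945% of the TS/A level. In 4T1 empty 2 those reads touched 17 of the 18 genes, against 5 or 6 in the other 4T1 libraries. Over 21 genes chosen the other way round, the TS/A libraries held 119, 52, 114 and 61 reads, 0.125%, 0.0718%, 0.111% and 0.0722% of the 4T1 level. Whether such reads, among them the 1 read of Cdkn2a in 4T1 empty 2, came from the cells was not tested.

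A few of these genes were neighbours. Taking the genes read in the other line in chromosomal order, 7 runs of 2 or 3 neighbours (15 genes) had 3 reads or fewer in TS/A, and 4 runs (9 genes) in 4T1. Among those off in TS/A were Slamf9 and Igsf9, Serpina3g and Serpina3i, Slain1 and Pou4f1, Fahd2a and Prom2, Megf6 and Arhgef16, and the triplet Dsc2, Dsg2 and B4galt6. The triplet holds 2 desmosomal cadherins and a glycosyltransferase on chromosome 18 (20030633 to 20746404). Off in 4T1 were Pax9 and Slc25a21, Cdkn2a and Cdkn2b, Ttc12 and Ncam1, and the triplet Bhlhb9, Arxes2 and Tceal8 on chromosome X (135797594 to 136172342). In that triplet Bhlhb9 had 36.2, 34.8, 38 and 42, Arxes2 16.3, 25.5, 13.7 and 15.8 and Tceal8 69.3, 81.9, 57.4 and 56.5 CPM in TS/A, with 1, 0 and 1 reads in all 4T1 libraries. Serpina3 genes are near-identical copies, so their pair is uncertain.

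Line differences were also shifted along whole chromosomes. The median log2 difference of tested genes was highest on chromosomes 13 (0.64, 478 genes) and 18 (0.62, 312 genes), followed by 17 (0.36), 3 (0.31) and 6 (0.31). It was lowest on chromosomes 4 (-0.34, 744 genes), 19 (-0.29), 8 (-0.28), 7 (-0.26) and 9 (-0.21). On chromosome 18, 65.4% of tested genes were higher in TS/A and 11.2% lower, and on chromosome 4, 13.4% were higher and 51.3% lower. Over all chromosomes, 33.0% of tested genes were higher and 32.4% lower. Taken per TS/A library against the 4T1 mean, on log2(CPM + 0.5) and relative to the median of all tested genes, the median lay between 0.54 and 0.63 on chromosome 13, between 0.53 and 0.60 on chromosome 18 and between -0.36 and -0.30 on chromosome 4. The 4 values share the same 4T1 mean, so their likeness is not independent evidence of a shift. DNA copy number was not measured in the files analysed here.

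**Figure D5:**
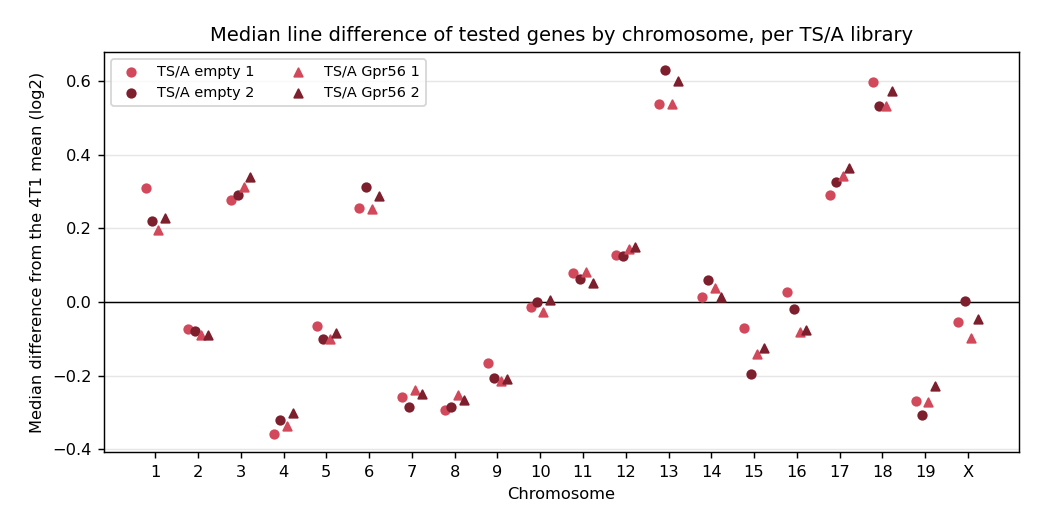
Median log2 difference from the 4T1 mean over the tested genes of each chromosome, per TS/A library (circles for the empty, triangles for the Gpr56 vector label, light for library 1 and dark for library 2), relative to the median over all tested genes. The 4 libraries lie between 0.54 and 0.63 on chromosome 13 and between -0.36 and -0.30 on chromosome 4.

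Within chromosomes the shifts came in blocks. Medians over 51 neighbouring tested genes stayed within 0.5 of 0 in 85.6% of 10955 overlapping windows and ran from -1.59 to 1.18. The windows named here were picked for their extreme medians, so lopsided counts within them follow from that choice. Over all tested genes, 33.0% were higher in TS/A and 32.4% lower. The lowest window lay on chromosome 15 from 44619175 to 66923201 (Ebag9 to Wisp1), where 42 of 51 genes were lower in TS/A and 3 higher. Fam91a1, a vesicle tethering gene inside it, had 531, 549, 478 and 463 CPM in 4T1 and 114, 106, 101 and 93.4 CPM in TS/A (-2.28 ± 0.08, SE; edgeR adjusted p = 9.32e-09). Myc, in the same window, went against it at 276 ± 8.28 CPM in 4T1 and 335 ± 49.2 CPM in TS/A, slightly higher in TS/A (0.28 ± 0.11, SE; edgeR adjusted p = 0.0487). The next lowest windows on other chromosomes were on 9 (30427108 to 44268599, median -1.02, 35 of 51 lower) and 19 (8802555 to 12765632, median -0.81, 35 lower). The highest lay on chromosome 17 from 13760539 to 23675227 (Afdn to Hcfc1r1, median 1.18), where 40 of 51 genes were higher and 4 lower. Windows on chromosomes 13 (17710315 to 24992501, median 0.97) and 18 (9707595 to 31609911, median 0.85) followed. The chromosome 18 window spans the run of Dsc2, Dsg2 and B4galt6, which had 0 to 2 reads in TS/A in a window where 38 of 51 genes were higher there.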

How the data were processed

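Total RNA of 8 samples was sequenced from TruSeq v2 libraries, per the labels' protocols, a kit that does not mark strand. The authors deposited, per transcript, read counts (whole reads per transcript, not normalized) and RPKM. Only the deposited counts were analysed; the deposited RPKM values, which the authors scaled by length and depth, were left out. For the aligner, counting tool and genome build, the entry is: not given in the sources used here. Transcript counts were summed per gene name; 65042 transcripts gave 22026 names, 15815 with reads. Coordinates and biotypes come from GENCODE M21 (GRCm38), in which 19 transcripts were not found. Without strand, reads of overlapping and antisense genes cannot be told apart.

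Lines were taken from sample titles and vectors from characteristics. Genes passing filterByExpr were tested with edgeR 4.0.16 in R 4.3.3 (TMM, quasi-likelihood, vector label as covariate, Benjamini-Hochberg adjusted p under 0.05); a fit of 4 groups gave the difference per vector label and its interaction. SE is the absolute log2 difference over the square root of F. Genes at 3 reads or fewer over a line, with at least 1 CPM in each library of the other, were counted as off; folds against 0 reads use 3 reads over the line, and ratios carry 95% exact counting intervals, which cover counting error only. On simulated counts for 11782 genes, the line test called 44 of 100 genes simulated at 1.5-fold and 99 of 100 at 3-fold, with 14 false among 157 calls. Far fewer genes differed there than in the data, and none of those was of few reads. Both lines also shared the same spread, so these rates need not hold for the data.

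The members and the 34 gene lists (998 entries, 15 not found) were chosen with earlier results of these data known. By the naming rule, named genes were held genes. The rule took the 12 largest differences each way at 10 CPM or more. It also took the 6 most abundant each way with at least a 4-fold difference, and up to 3 each way per list at 5 CPM or more. Genes of runs and Adgrg1 were added. The 8 genes with an interaction were named as well, but an interaction was no part of that rule. Other genes given by name were chosen after their values were seen, and a few that the rule names are not reported here. Alternatives were DESeq2 1.42.0 size factors and Wald test, library totals, limma 3.58.1 voom, other filters, a fold threshold, a replicate block, each library left out, and sums by GENCODE gene.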

Additional observations from a re-analysis of the deposited data

Results flagged for a closer look

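In 6 of 212 groups of 4 libraries, 1 library lay far from the other 3 by Dixon's test; chance alone flags about 1 in 20 groups. They were Adgra2 in TS/A Gpr56 2 at 26.9 CPM, Ccne2 in TS/A empty 2 at 127.7 CPM, Cdkn2c in TS/A empty 1 at 20.1 CPM, Inhba in 4T1 Gpr56 2 at 56.3 CPM, Itga2 in TS/A Gpr56 2 at 16.8 CPM and mt-Cytb in TS/A empty 1 at 641 CPM.

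The line difference differed between the vector labels in 8 genes by edgeR's interaction test (Gpr56 minus empty label, log2). The values were -5.67 ± 0.55 for Adgrg1, -1.76 ± 0.19 for Anxa8, 4.11 ± 0.49 for Epdr1, -2.37 ± 0.27 for Hspb1, -1.95 ± 0.23 for Krt14, -3.01 ± 0.23 for Mal, -2.38 ± 0.19 for Prl2c2 and 1.60 ± 0.18 for Vcam1 (each ± SE). The count of such genes moved between 0 and 2391 when single libraries were left out.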

How the results depend on the processing

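The 7827 genes called between the lines became 3607 against a 1.5-fold threshold, and 7048 to 8967 when single libraries were left out. With the empty vector, 5674 became 3713 with those libraries fitted alone and 3335 to 7853 leaving 1 out; with the Gpr56 vector, 6462 became 4237 to 8536. Held genes numbered 3123 (without 4T1 empty 1) to 6793 (without TS/A empty 1). Each fit without a library leaves an arm of 1, assumed to vary like the other groups. The 8 interaction genes became 4 with library totals, 66 by DESeq2, 0 by limma-voom, 60 without a filter, 3 with the replicate block, and 0 to 2391 leaving 1 library out. Off genes (247) became 129 at 0 reads and 110 at 5 CPM. Requiring 10 CPM moved the chromosome medians to 0.36 (3), -0.31 (4), 0.35 (6), -0.030 (10), 0.073 (11), 0.21 (12), 0.12 (14) and 0.30 (17). Mitochondrial calls ran from 4 to 11 and ribosomal calls from 12 to 30 (30 without TS/A empty 1). Adgrg1 turned to -0.66 in limma-voom and -1.15 without the vector covariate, and ran from -0.99 to 1.39 leaving out a library. The causes of these shifts were not tested. The other 183 of 184 genes named by the rule kept their call and sign in every setting run on them. The rule took mostly held genes of these same data, so this was largely set in advance and is no measure of robustness. Genes given by name outside the rule are not among the 184. Same-numbered libraries deviated together in 1 pair of groups, TS/A empty with TS/A Gpr56 (correlation 0.31). In the other pairs the correlation lay between -0.06 and 0.03. Whether the numbers pair the samples within TS/A was not tested. With a replicate block the line calls were 7850. Precision for genes of few reads is limited by depth.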
